A study of Homo sapiens with 18 samples.

Results

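The 50 genes described here encode proteins that make and assemble ribosomes in the nucleolus. They were chosen by name, from a list of ribosome biogenesis genes, and not by how they changed. All 50 were found among the 60707 genes of the count table, and all 50 passed the filter on low counts that left 16474 genes for testing. By role they are 6 genes of RNA polymerase I transcription, 4 of box C/D and 4 of box H/ACA small nucleolar ribonucleoproteins (snoRNPs), 17 of small subunit and 14 of large subunit assembly, and 5 multifunctional nucleolar proteins.

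Ribosome assembly starts when RNA polymerase I copies the rRNA genes into 1 long precursor. SnoRNPs then modify it, the box C/D particles by methylating riboses and the box H/ACA particles by turning uridines into pseudouridines, while assembly factors fold, cut and sort it into small and large subunit precursors. The demand for ribosomes is high in fast-growing lymphoma cells, and MYC, whose gene is translocated in Burkitt lymphoma, is known to activate many genes of this pathway.

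The cells were Raji, a human B cell line established from a Burkitt lymphoma, and their RNA was sequenced after rRNA depletion. The series describes them as carrying an auxin-inducible degron for the chromatin remodeller SMARCA4. Such a degron lets auxin trigger breakdown of a tagged protein. The labels give every library the genotype Smarca4+/+ and sort them into GFP_HIGH and GFP_LOW at 24, 48 and 72 h, which makes 6 groups of 3 libraries. What GFP reports, which groups received auxin, when the clock started and whether the line is 1 clone is not stated in the labels, so all differences are stated as GFP low against GFP high.

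Libraries held 27257876 to 55419458 counts. Levels are CPM (counts relative to the library total, scaled between libraries as described below). SMARCA4 mRNA does not report on the protein that a degron removes. This mRNA ranged at 24 h from 411.5 to 429.0 CPM in GFP high libraries and from 574.9 to 614.2 CPM in GFP low libraries. The GFP low libraries were also above at 48 h (472.5 to 500.8 CPM, with 440.0 to 457.1 in GFP high) and 72 h (465.1 to 490.1 CPM, with 405.3 to 422.8 in GFP high). By their mean over all libraries, all 9 B cell markers checked reached 1 CPM, and none of 7 myeloid or 5 erythroid markers did. Of 7 T cell markers CD3D and TRAC reached this mean and 1 was at 0. The sum of all 7 at 24 h was 6.84 to 7.52 CPM for GFP high and 2.77 to 3.28 CPM for GFP low. Of 8 epithelial, kidney or fibroblast markers COL1A1 and VIM reached a mean of 1 CPM. The sum of all 8 at 24 h was 7.38 to 7.95 CPM for GFP high and 12.8 to 15.6 CPM for GFP low. The share of mitochondrial genes was 4.27% to 4.62% for GFP high and 3.48% to 3.64% for GFP low at 24 h, and 2.67% to 2.79% for GFP high and 3.81% to 3.98% for GFP low at 72 h. The part of these differences in the results below was not tested.

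All CPM values, above and below, are scaled by the trimmed mean of M-values (TMM), and log2 fold changes are followed by ± SE. The test was edgeR's quasi-likelihood test, its p-values were adjusted over all 16474 genes by the method of Benjamini and Hochberg, and a gene is said to be higher, lower, risen or fallen only where this value is under 0.05. Whether libraries of a group were separate cultures is not in the labels, and the p-values reflect the spread between libraries alone, which may be technical. The 3 libraries of each group belong to 3 library sets named in the table's columns (unnumbered, 1 and 2), and values per library are given in that order. A fit with the set as a block is called the block. In bulk RNA, fewer cells of a type and less RNA per cell cannot be told apart.

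The start regions of 43 members were found in RefSeq (GRCh38.p14), each from 250 bases before to 50 after the start of transcription. They are shown because a 6-letter sequence, the E-box CACGTG that MYC with its partner MAX is known to bind, stood in 21 of the 43 (48.8%). It stood in 13% of the 9209 tested protein-coding genes that have an entry and in 7.26% of all 35116 promoters of the same length. The 3 E-box members with the lowest log2 fold change at 24 h (NOP10, EBNA1BP2 and PNO1) are printed first and the 3 with the highest (UTP20, UTP14A and NOP14) after them, with the E-box in capitals.
NOP10 chr15:34343087-34343386 (minus strand): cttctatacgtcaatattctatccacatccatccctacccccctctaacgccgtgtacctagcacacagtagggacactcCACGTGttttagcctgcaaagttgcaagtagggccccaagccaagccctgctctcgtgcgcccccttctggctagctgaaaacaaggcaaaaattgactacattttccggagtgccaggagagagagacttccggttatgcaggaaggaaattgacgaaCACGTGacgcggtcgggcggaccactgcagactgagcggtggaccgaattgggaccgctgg
EBNA1BP2 chr1:43172241-43172540 (minus strand): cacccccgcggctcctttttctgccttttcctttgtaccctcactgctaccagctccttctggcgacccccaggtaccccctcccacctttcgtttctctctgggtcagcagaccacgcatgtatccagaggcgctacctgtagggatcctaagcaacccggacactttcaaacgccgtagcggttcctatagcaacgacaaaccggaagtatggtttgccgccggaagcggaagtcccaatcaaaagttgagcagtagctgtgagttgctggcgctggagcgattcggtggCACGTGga
PNO1 chr2:68157638-68157937 (plus strand): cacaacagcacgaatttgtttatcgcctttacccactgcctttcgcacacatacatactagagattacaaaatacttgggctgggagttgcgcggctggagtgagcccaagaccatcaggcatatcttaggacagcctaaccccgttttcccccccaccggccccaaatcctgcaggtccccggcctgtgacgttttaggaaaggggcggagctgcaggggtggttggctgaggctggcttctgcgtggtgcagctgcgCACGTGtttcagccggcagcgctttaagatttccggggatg
UTP20 chr12:101279855-101280154 (plus strand): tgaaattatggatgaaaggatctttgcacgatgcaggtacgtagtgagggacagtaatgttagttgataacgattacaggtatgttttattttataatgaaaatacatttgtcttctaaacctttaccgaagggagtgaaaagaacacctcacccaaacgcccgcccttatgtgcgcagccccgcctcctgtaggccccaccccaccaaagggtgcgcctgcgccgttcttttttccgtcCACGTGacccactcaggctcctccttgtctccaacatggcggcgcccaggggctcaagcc
UTP14A chrX:129905914-129906213 (plus strand): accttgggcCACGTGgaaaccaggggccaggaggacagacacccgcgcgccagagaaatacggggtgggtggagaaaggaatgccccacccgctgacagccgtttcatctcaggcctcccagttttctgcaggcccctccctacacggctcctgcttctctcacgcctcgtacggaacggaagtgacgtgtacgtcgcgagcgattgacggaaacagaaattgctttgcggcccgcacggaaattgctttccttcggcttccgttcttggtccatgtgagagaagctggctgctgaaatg
NOP14 chr4:2963357-2963656 (minus strand): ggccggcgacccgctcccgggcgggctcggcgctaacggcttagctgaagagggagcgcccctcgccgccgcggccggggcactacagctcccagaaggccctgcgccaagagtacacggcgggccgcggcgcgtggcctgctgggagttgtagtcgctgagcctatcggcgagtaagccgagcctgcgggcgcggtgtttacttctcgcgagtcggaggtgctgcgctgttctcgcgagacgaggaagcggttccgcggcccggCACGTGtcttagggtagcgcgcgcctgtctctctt

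In 5 of these 6 regions an E-box lies within 50 bases of the start of transcription, and that of UTP14A lies far upstream. The last bases of NOP14's region were not found as an unbroken stretch in its GENCODE 29 transcripts, while those of the other regions printed were found in theirs. The position of the first base of the motif was -11 and -170 in NOP10, 43 in EBNA1BP2, 10 in PNO1, -10 in UTP20, -241 in UTP14A and 16 in NOP14. Over the entries of the 21 members there were 25 matches, 11 before and 14 after the start, with a median position of 5. Those of EBNA1BP2 are different sites in 2 entries with different starts. Within 50 bases of the start the motif occurred in 19 of 43 members (44.2%) and in 5.57% of the 9209 tested genes. The letters are the same on both strands. A match is a description of the sequence, and binding was not measured.

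**Figure D1:**
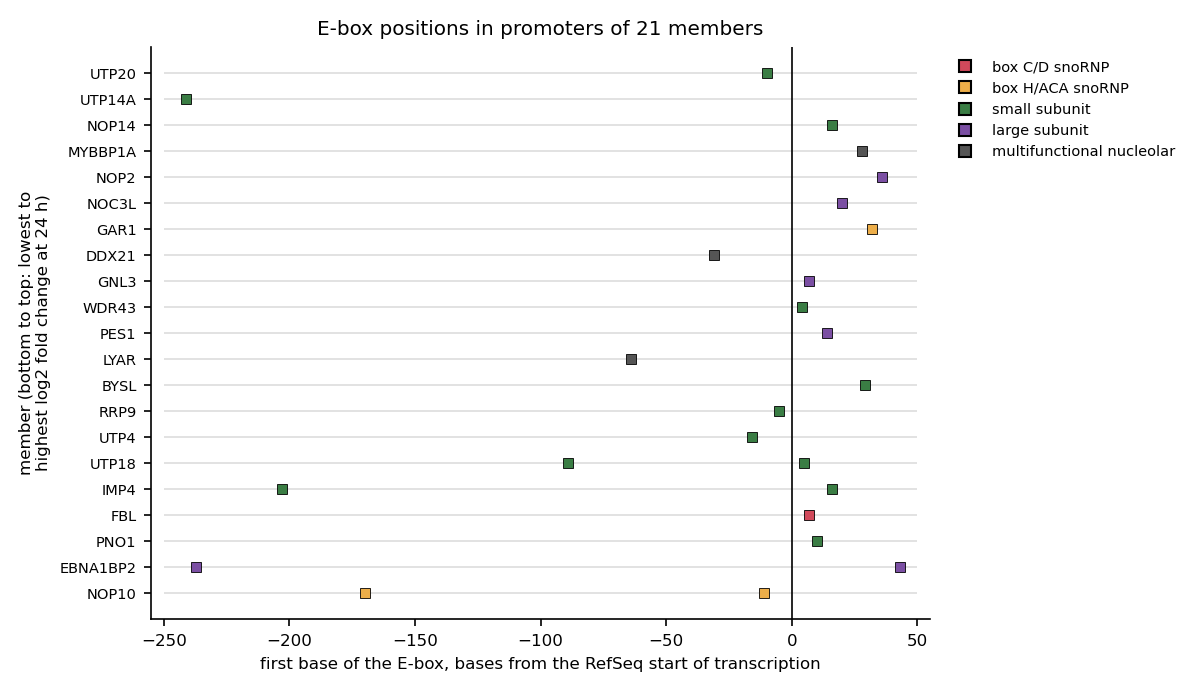
Position of the first base of each CACGTG match, in bases from the RefSeq start of transcription, in the 21 members that hold one, ordered from the lowest (bottom) to the highest (top) log2 fold change at 24 h and coloured by role. Of 25 matches 14 lie after the start, and members from the bottom to the top of the order hold one near it.

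Members with and without an E-box both held more lower than higher calls at 24 h. In GFP low cells 4 of the 21 with it were higher and 14 lower, with a median log2 fold change of -0.21, against 4 and 16 of the 22 without it and a median of -0.14. The ETS motif CCGGAAGT (or ACTTCCGG) stood in 12 of 43 members (27.9%) and in 10.8% of the tested genes. The shares of the CCAAT box, CCAAT or ATTGG (44.2% and 44.7%), and of the GC box, GGGCGG or CCGCCC (74.4% and 76.2%), were close to those of the tested genes. At 24 h 1 of the 19 members with a CCAAT box was higher and 16 lower (median -0.42), against 7 and 14 of the 24 without it (median -0.08). For ETS it was 0 and 8 of 12 with the motif (median -0.11) against 8 and 22 of 31 without it (median -0.21). These splits were not tested. UTP20 alone among the 43 members held TATAAA or TTTATA, which 8.49% of tested genes hold. None of these 5 motifs contains another, and all were read on both strands.

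Per base of exon, the 3 most abundant members were multifunctional proteins. The mean over 18 libraries was 283 RPKM (CPM relative to the exon length in kilobases) for the histone chaperone NPM1, 272 for nucleolin (NCL) and 222 for the RNA helicase DDX21. The snoRNP proteins NOLC1 (125 RPKM), NOP10 (111) and FBL (107) came next, and 43 of the members lay between 9.25 RPKM (PPAN) and 101 RPKM (GNL3) or at these values. Exon length counts all exon bases of a gene, 8311 for NPM1 and 8919 for NCL, whose longest transcripts have 1758 and 4034 bases. The RPKM values and their order depend on the length used. NOP2, a methyltransferase of large subunit rRNA, was the lowest at 1.81 RPKM. By the exon coordinates deposited with the counts, 54.4% of its exon bases are shared with ENSG00000285238 on the same strand, which has 0 counts in all 18 libraries. How reads in shared bases were assigned is not stated, so the level of NOP2 is uncertain. Other members share exon bases too, among them IMP3 (58.1%, opposite strand), PPAN (49.2%, with P2RY11) and NHP2 (28.9%, opposite strand). Whether counting used the strand is not given in the sources used here, and reads of such overlaps cannot be told apart without it. Pseudogenes of RRN3 held 34.7% as many counts as RRN3 itself, and the 49 of NPM1 held 1.09%.

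The difference between GFP low and GFP high cells was widest at 24 h, when 30 of the 50 members were lower and 11 higher in GFP low cells. Of all genes tested 28.5% were lower and 29.3% higher. Of 8214 protein-coding genes of at least 10 CPM, a class closer in level to the members, 44.2% were lower and 34.0% higher. The members' log2 fold changes ran from -0.88 (NHP2) to 0.34 (POLR1A) with a median of -0.10, beside a median of 0.03 over all genes. The 3 GFP low libraries lay below the 3 GFP high libraries for 29 members and above them for 10 (29.8% and 32.1% of all genes). With upper quartile in place of TMM factors the members' counts were 23 lower and 14 higher, and of all genes 9810 were called, 5826 of them higher.

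At 48 h the differences were small and went 1 way: 15 members were lower and 0 higher in GFP low cells (13.2% and 10.6% of all genes). Of the 8214 protein-coding genes of at least 10 CPM, 21.2% were lower and 13.1% higher. Unadjusted p was under 0.05 for 19 lower and 0 higher members (3087 and 2563 of all 16474 genes, 2329 and 1438 of the 8214). DESeq2 called 14 members lower and 0 higher, and 3349 genes in all, 1531 of them higher. Lower were 9 members with upper quartile factors and 9 with no filter on low counts. Over all genes these settings called 3800 (2006 higher) and 3530 (1773 higher). The members' median was -0.05, 41 of 50 values were negative and the range was -0.31 to 0.04. Libraries were taken as paired by library set, and with the set as a block 25 members were lower and 0 higher. The block called 5780 genes in all, 2541 of them higher. The count of 15 fell to 7 without the GFP low 48 h library of set 2, to 8 without the GFP high 48 h library of set 2, and to 9 without the unnumbered GFP high 48 h library, the GFP low 48 h library of set 1 or the GFP low 24 h library of set 1.

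At 72 h 13 members were lower and 3 higher (13.5% and 12.9% of all genes), with a median of -0.02 and a range of -0.30 to 0.14. Of the 8214 protein-coding genes of at least 10 CPM, 1728 were lower and 1397 higher at 72 h, larger shares than those of all genes. With the block the members' counts were 16 and 8, and of all genes 6043 were called, 3044 of them higher. Without the GFP low library of set 1 at 72 h, 8 members were lower, and without that of set 2, 1 was higher. Averaged over the 3 times, 30 members were lower and 7 higher (26.9% and 25.0% of all genes), or 33 and 13 with the block and 27 and 13 with upper quartile factors. On this average 3516 of the 8214 protein-coding genes were lower and 2385 higher.

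**Figure D2:**
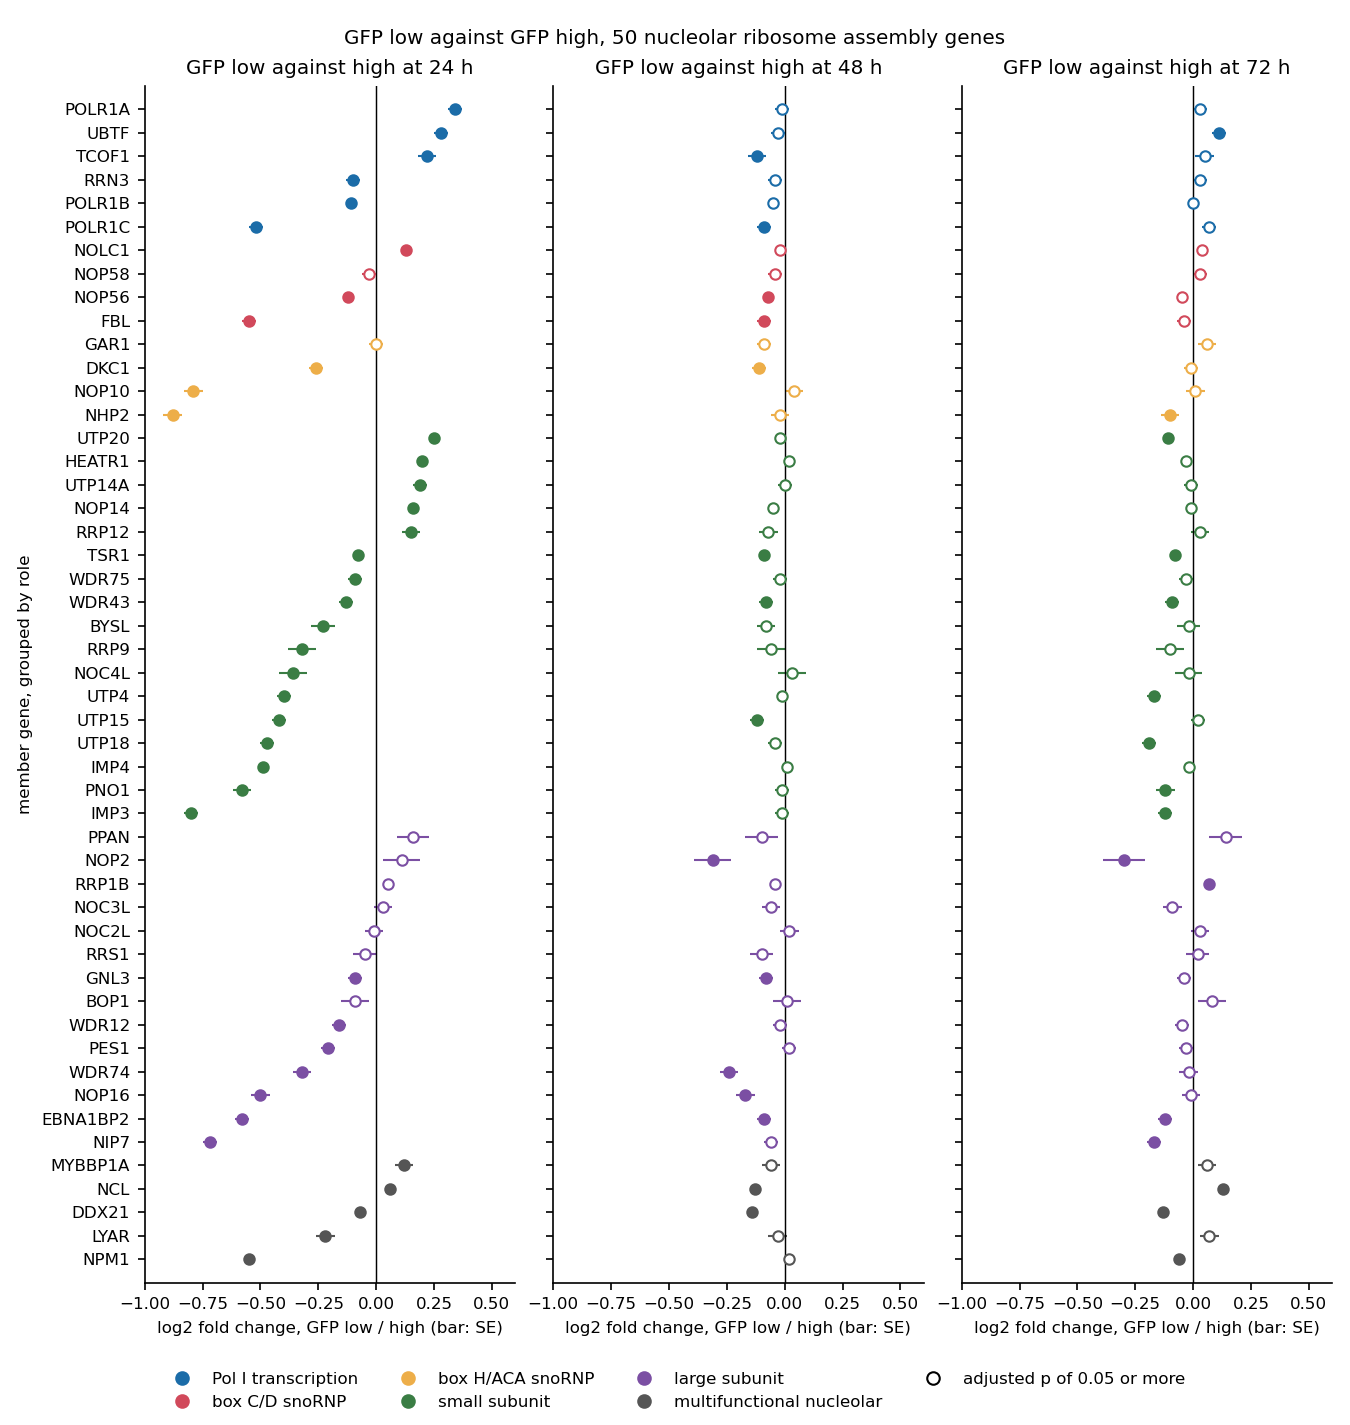
Log2 fold change of GFP low against GFP high cells for each of the 50 members at 24, 48 and 72 h (3 libraries a group), with bars of 1 SE, coloured and grouped by role; open points have an adjusted p of 0.05 or more. Values at 24 h spread from -0.88 to 0.34, and those at 48 and 72 h lie close to 0.

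Lower at all 3 times were 4 members, WDR43, TSR1, EBNA1BP2 and DDX21 (4.26% of all genes were). The call at 48 h was lost without any 1 of 6 libraries for EBNA1BP2 (adjusted p from 0.0531 to 0.152) and of 5 for WDR43 (0.0517 to 0.212), and that of WDR43 at 72 h without any 1 of 4 (0.0535 to 0.1). The 48 h call of WDR43 was also lost with upper quartile factors (0.0975), no filter (0.0832) and at least 1 CPM in 3 libraries (0.0534). It was lost as well with the exon (0.0634) or transcript length trend (0.0697) removed. That of EBNA1BP2 was lost with upper quartile factors (0.0539) and no filter (0.0916). Upper quartile factors ended the 24 h calls of WDR43, TSR1 and DDX21. A further 11 were lower at 24 h alone (14.5% of all genes), 8 at 24 and 48 h (2.36%), and 7 at 24 and 72 h (4.03%). Higher at 24 h alone were 7 (15.3% of all genes): POLR1A, NOLC1, HEATR1, UTP14A, NOP14, RRP12 and MYBBP1A. With the block NOLC1, NOP14, RRP12 and MYBBP1A were also called lower at 48 h, and NOLC1 and MYBBP1A higher at 72 h. Of the 11 lower at 24 h alone, POLR1B was called lower at 48 h, RRP9 lower at 72 h and LYAR higher at 72 h with the block. No call was made at any time (33.3% of all genes) for NOP58, GAR1, BOP1, NOC2L, NOC3L, RRS1 and PPAN, of which only NOC2L had none with the block either. The other 6 members each had a pattern of their own, such as higher, lower and higher for NCL.

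At 24 h longer members tended to have higher values, as did genes in general. Across the 50 members, Spearman's rho between the log2 fold change and the length of the longest transcript was 0.59, the same as over the 8214 protein-coding genes (0.59), and with total exon length it was 0.48 and 0.55. These are correlations across genes, which share libraries and are not independent replicates. At 48 and 72 h rho with transcript length was 0.07 and 0.09 in the members. Of the 25 members under the median exon length of 4225 bases 17 were lower and 3 higher at 24 h (median -0.23), and of the 25 longer ones 13 and 8 (median -0.07). With a trend on transcript length removed from the counts, 27 members were lower and 9 higher at 24 h, with a trend on exon length 26 and 9, and with trends on exon length and GC content 26 and 12. Calls of single members that these settings changed at 24 h are given with each gene below.

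**Figure D3:**
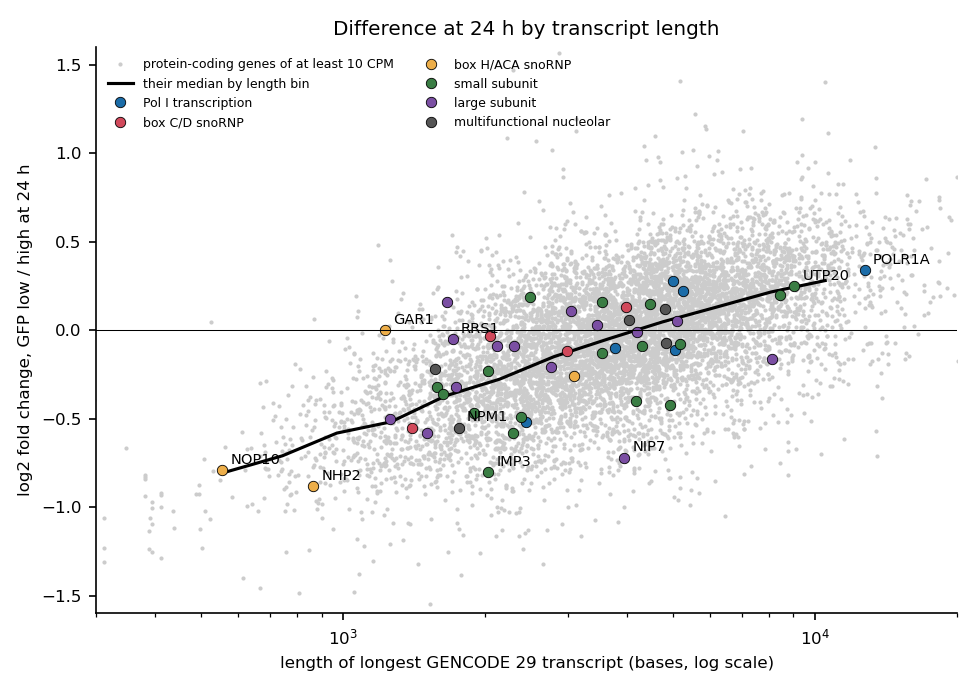
Log2 fold change at 24 h (GFP low against GFP high) against the length of the longest GENCODE 29 transcript in bases, on a log axis, for the members (coloured by role) and 8214 protein-coding genes of at least 10 CPM (grey), with the median of the latter in 12 length bins (line); 22 of the grey genes lie outside the axes. Short NOP10 and NHP2 lie low and long UTP20 and POLR1A high, near the line of all genes, while NIP7 and IMP3 lie below it and GAR1 above.

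Among the 6 RNA polymerase I members, 3 were lower and 3 higher at 24 h in GFP low cells (28.5% and 29.3% of all genes). POLR1C, a subunit shared by RNA polymerases I and III, fell: it read 64.1, 65.4 and 64.8 CPM in GFP high libraries at 24 h, and the 3 GFP low libraries read from 43.5 to 47.7 CPM. All GFP low values lay below all GFP high values, with a log2 fold change of -0.52 ± 0.03 (adjusted p = 1.64e-11). At 48 h POLR1C read 61.4, 59.4 and 63.4 CPM in GFP high and 58.1, 57.9 and 57.0 in GFP low libraries, and at 72 h 57.3, 55.9 and 58.0 against 60.0, 61.1 and 59.1. The groups did not overlap at 48 h, with GFP low below, nor at 72 h, with GFP low above, but the differences were small: -0.09 ± 0.03 (adjusted p = 0.0497) and 0.07 ± 0.03 (adjusted p = 0.129). The call at 48 h was lost under 6 of the alternative settings and without any 1 of 15 libraries (adjusted p from 0.0534 to 0.34).

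The catalytic subunits of the same enzyme moved apart at 24 h. The largest subunit, POLR1A, had a log2 fold change of 0.34 ± 0.03 (adjusted p = 2.26e-10) and the second largest, POLR1B, of -0.11 ± 0.02 (adjusted p = 0.000296). POLR1B was also called lower at 48 h with the block (-0.05, adjusted p = 0.0134). For POLR1A the call was lost with the exon length trend (0.07), the transcript length trend (0.01) or length and GC trends (0.05) removed, and for POLR1B with upper quartile factors (-0.04). RRN3, the initiation factor that recruits the enzyme, was lower by a log2 fold change of -0.10 ± 0.03, with overlapping groups. Its call was lost without GFP high of set 1 (adjusted p = 0.0548) or the unnumbered set (0.0966) at 24 h, with upper quartile factors (-0.03) and with the exon length trend removed (-0.05), and the value reached 0.01 with length and GC trends removed.

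UBTF, which binds the rRNA gene promoter and keeps its chromatin open, was higher in GFP low cells at 24 h. Its libraries read 327, 323 and 346 CPM in GFP high and 404, 394.5 and 414 in GFP low cells at 24 h, 319.9, 310.4 and 335 against 318, 305.5 and 323 at 48 h, and 289, 284.5 and 297 against 315, 306 and 318 at 72 h. GFP low libraries lay above at 24 and 72 h and overlapped with GFP high libraries at 48 h. Log2 fold changes amounted to 0.28 ± 0.03 (adjusted p = 5.41e-08), -0.03 ± 0.03 (adjusted p = 0.56, or 0.0466 with the block) and 0.11 ± 0.03 (adjusted p = 0.0114). The value at 72 h had an adjusted p of 0.0665 without the GFP low library of set 2.

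TCOF1 encodes treacle, a partner of UBTF and RNA polymerase I in the nucleolus. It read 223, 221 and 241 CPM in GFP high and 269, 258 and 273 in GFP low libraries at 24 h, 233, 235 and 251 against 221, 215 and 226 at 48 h, and 198, 198 and 212 against 205, 208 and 219 at 72 h. GFP low values were above at 24 h, below at 48 h and overlapping at 72 h. The log2 fold change was 0.22 ± 0.04 (adjusted p = 2.5e-05), -0.12 ± 0.04 (adjusted p = 0.0222) and 0.05 ± 0.04 (adjusted p = 0.336). The 24 h value became 0.04 with the exon length trend removed and -0.01 with length and GC trends removed, both without a call. The call at 48 h was lost without the GFP high library of set 2 (adjusted p = 0.218) and without the unnumbered GFP low library (0.083) or that of set 1 (0.145).

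Box C/D snoRNPs carry a core of FBL, NOP56 and NOP58, and these moved unequally at 24 h. FBL, the methyltransferase of the particle, read 246, 253 and 256 CPM in GFP high and 172, 167 and 175 in GFP low libraries at 24 h. All 3 GFP low values lay well below, with a log2 fold change of -0.55 ± 0.03 (adjusted p = 1.54e-13). By 48 h FBL read 239, 231 and 236 CPM in GFP high and 222, 219 and 224 in GFP low libraries, and at 72 h 254.5, 240.2 and 252 against 244, 233 and 248. The gap at 48 h was -0.09 ± 0.03 (adjusted p = 0.022) with no overlap, and at 72 h the groups overlapped (-0.04 ± 0.03, adjusted p = 0.278, or 0.0436 with length and GC trends removed). The 48 h call was lost with upper quartile factors, with no filter on low counts, and without any 1 of 7 libraries: 5 of the 6 at 48 h (all but GFP high of set 1) and those of set 1 at 24 h (adjusted p from 0.0607 to 0.137).

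NOP56, a scaffold of the particle, read 379.7, 378 and 385 CPM in GFP high and 352, 348 and 356 in GFP low libraries at 24 h, 388, 384 and 401 against 378, 363 and 377 at 48 h, and 372, 367 and 373 against 361, 356 and 360.1 at 72 h. GFP low libraries lay below at each time, by a log2 fold change of -0.12 ± 0.02 (adjusted p = 6.32e-05), -0.07 ± 0.02 (adjusted p = 0.0182) and -0.05 ± 0.02 (adjusted p = 0.113, or 0.00841 with the block). At 72 h it was also called lower with the exon length trend (0.0294) or length and GC trends (0.00233) removed, and its 48 h call was lost with upper quartile factors (0.0526) and with no filter (0.211). The call at 48 h was lost without any 1 of 5 libraries (the GFP low ones of sets 1 and 2 and the GFP high one of set 2 at 48 h, and both of set 1 at 24 h, adjusted p from 0.0597 to 0.254). NOP58, the paralogue of NOP56 in the same core, had log2 fold changes of -0.03 ± 0.03, -0.04 ± 0.03 and 0.03 ± 0.03, with overlapping groups at each time. It was called lower at 48 h with the block (adjusted p = 0.0382), and its 24 h value became 0.12 with the transcript length trend removed and 0.13 with length and GC trends removed, both called higher.

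NOLC1, a chaperone of snoRNPs on their way to the nucleolus, was higher at 24 h. It read 502, 481 and 489.5 CPM in GFP high and 548, 529.6 and 537 in GFP low libraries at 24 h, 506, 482 and 488 against 495, 484 and 475.5 at 48 h, and 483, 469.9 and 476 against 495, 494 and 484 at 72 h. Groups were apart at 24 and 72 h, with GFP low above, and overlapped at 48 h. The differences came to 0.13 ± 0.02 (adjusted p = 2.29e-05), -0.02 ± 0.02 (adjusted p = 0.574, or 0.048 with the block) and 0.04 ± 0.02 (adjusted p = 0.18, or 0.0344 with the block).

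Of the 4 box H/ACA proteins, 3 were lower at 24 h (28.5% of all genes were) and the fourth, GAR1, did not differ beyond the spread. NHP2, an RNA-binding core protein, had the largest difference of all members. NHP2 (ENSG00000145912.9) lies at chr5:178149463-178153894 on the minus strand of hg38. Its libraries read 141, 135 and 148 CPM in GFP high and 77.5, 73.3 and 79.2 in GFP low cells at 24 h. The GFP low level was 0.543 times the GFP high level, a log2 fold change of -0.88 ± 0.04 (adjusted p = 7.25e-15), with no overlap. At 48 h NHP2 read 142, 142 and 149.9 CPM in GFP high and 144, 139 and 145 in GFP low libraries, and at 72 h 149.9, 146 and 153 against 139.6, 134 and 143.5. The groups overlapped at 48 h (-0.02 ± 0.04, adjusted p = 0.724) and GFP low lay below at 72 h (-0.10 ± 0.04, adjusted p = 0.0367). The call at 72 h was lost without any 1 of 6 libraries (adjusted p from 0.051 to 0.181): both unnumbered ones at 72 h, GFP low of set 1 and GFP high of set 2 at 72 h, GFP low of set 2 at 48 h, and the unnumbered GFP high one at 24 h. It was also lost with either length trend removed (0.0863 and 0.122).

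NOP10, the smallest protein of the particle, showed the same drop at 24 h and none later. Its libraries read 64.7, 65.7 and 66.3 CPM in GFP high and 37.5, 35.8 and 40.0 in GFP low cells at 24 h. Its log2 fold change was -0.79 ± 0.04 (adjusted p = 3.53e-13), with all GFP low values below. At 48 h it read 59.5, 54.0 and 57.3 CPM in GFP high and 58.8, 58.2 and 58.3 in GFP low libraries, and at 72 h 59.2, 56.0 and 62.0 against 59.6, 58.5 and 60.1. The groups overlapped at both times (0.04 ± 0.04, adjusted p = 0.568, and 0.01 ± 0.04, adjusted p = 0.95).

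DKC1, the dyskerin pseudouridine synthase, read 262, 259 and 260.5 CPM in GFP high and 222, 213.5 and 218 in GFP low libraries at 24 h, 272, 259 and 254 against 244, 241 and 242 at 48 h, and 249.7, 250.4 and 245 against 254, 243 and 241 at 72 h. GFP low libraries were below at 24 and 48 h, by -0.26 ± 0.03 (adjusted p = 1.19e-08) and -0.11 ± 0.03 (adjusted p = 0.00264), and overlapped with GFP high libraries at 72 h (-0.01 ± 0.03, adjusted p = 0.736). GAR1, the fourth protein, had a log2 fold change of 0.00 ± 0.03 at 24 h (adjusted p = 0.968) and -0.09 ± 0.03 at 48 h (adjusted p = 0.0588, or 0.005 with the block). Its 24 h value was called higher with the transcript length trend removed (0.26), the exon length trend removed (0.21) or both length and GC trends removed (0.23).

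**Figure D4:**
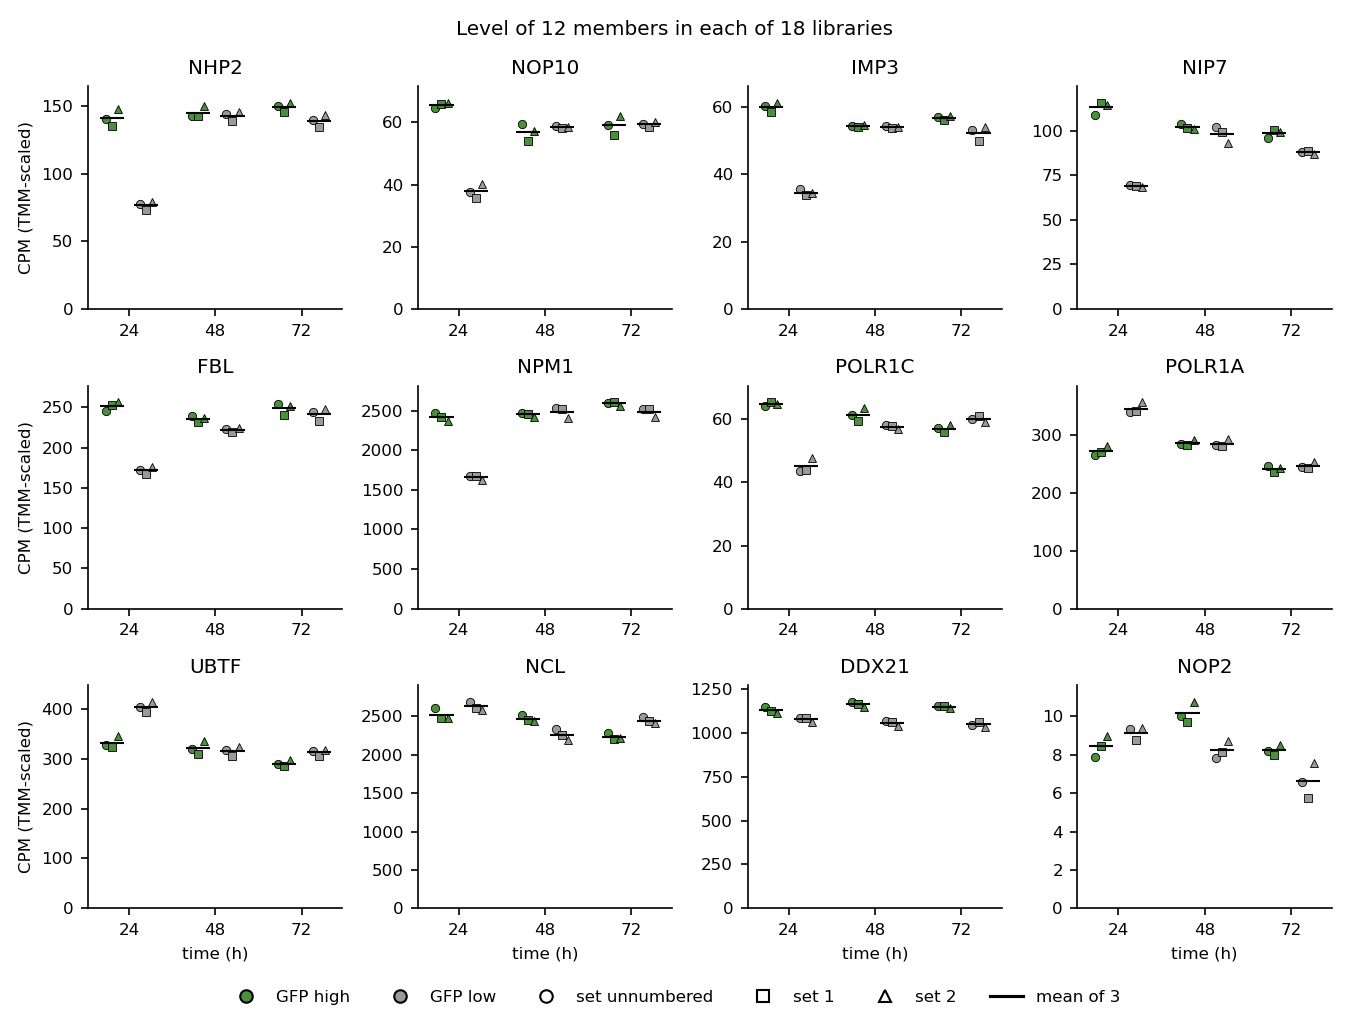
TMM-scaled CPM of 12 members in each of the 18 libraries by time in hours, green for GFP high and grey for GFP low, with the library set as the marker shape and the mean of 3 libraries as a line; each axis starts at 0. GFP low libraries of NHP2, NOP10, IMP3, NIP7, FBL, NPM1 and POLR1C are furthest below GFP high libraries at 24 h, while those of POLR1A and UBTF are above.

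Every small subunit member was called at 24 h, 12 lower and 5 higher in GFP low cells. Most genes of like level were called then too: 44.2% of the 8214 protein-coding genes of at least 10 CPM were lower and 34.0% higher (28.5% and 29.3% of all genes). The 5 higher members were UTP20 (0.25 ± 0.02), HEATR1 (0.20 ± 0.02), UTP14A (0.19 ± 0.03), NOP14 (0.16 ± 0.02) and RRP12 (0.15 ± 0.04). UTP20, a long scaffold protein of the early particle, and HEATR1 lost this with the transcript length trend removed (-0.0027 and -0.04), and RRP12, a factor of pre-ribosome export, with the exon length trend (0.02), the transcript length trend (0.08) or length and GC trends (-0.05) removed. IMP3, which helps the U3 snoRNA to pair with the rRNA precursor, fell the most. IMP3 (ENSG00000177971.9) lies at chr15:75639085-75648706 on the minus strand of hg38. It read 60.3, 58.4 and 61.2 CPM in GFP high and 35.5, 33.8 and 34.3 in GFP low libraries at 24 h, 54.2, 54.0 and 54.6 against 54.1, 53.6 and 54.0 at 48 h, and 56.9, 55.9 and 57.3 against 53.0, 49.7 and 54.0 at 72 h. At 24 and 72 h all GFP low values lay below, and at 48 h the groups overlapped. Its log2 fold change was -0.80 ± 0.03 (adjusted p = 5.69e-15), -0.01 ± 0.03 (adjusted p = 0.873) and -0.12 ± 0.03 (adjusted p = 0.00865, or 0.0776 with GFP low of set 1 at 72 h left out). Its partner IMP4 fell by 0.49 on the log2 scale at 24 h and had values of 0.01 and -0.02 later.

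The t-UTP proteins, which bind the precursor first and link its assembly to transcription, had calls in both directions at 24 h. HEATR1 was higher, and UTP15 (-0.42 ± 0.03), UTP4 (-0.40 ± 0.03), WDR43 (-0.13 ± 0.03) and WDR75 (-0.09 ± 0.03) were lower. The call of HEATR1 was lost with the transcript length trend removed (-0.04, adjusted p = 0.0942). Those of WDR43 and WDR75 were lost with upper quartile factors (-0.06, adjusted p = 0.0556, for WDR43 and -0.02, 0.555, for WDR75) and with length and GC trends removed (-0.02 for both, 0.451 and 0.43). UTP15 read 94.6, 95.1 and 90.0 CPM in GFP high and 72.5, 69.7 and 67.1 in GFP low libraries at 24 h, 89.3, 89.4 and 88.8 against 82.3, 84.5 and 80.3 at 48 h, and 79.5, 82.9 and 77.8 against 82.0, 81.1 and 79.7 at 72 h. The gap narrowed from no overlap at 24 and 48 h to overlap at 72 h. The 48 and 72 h values were -0.12 ± 0.03 (adjusted p = 0.0114) and 0.02 ± 0.03 (adjusted p = 0.762), and the call at 48 h was lost without the unnumbered GFP high library (0.0508) or the GFP low library of set 2 (0.11).

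UTP18, a beta-propeller protein of the UTP-B complex, read 123, 123 and 124 CPM in GFP high and 90.8, 87.0 and 88.9 in GFP low libraries at 24 h, 121, 122 and 115 against 115, 117 and 115 at 48 h, and 124.5, 125.6 and 125 against 112, 112 and 106 at 72 h. The groups were apart at 24 and 72 h, with GFP low below, and overlapped at 48 h. Log2 fold changes came to -0.47 ± 0.03 (adjusted p = 1.65e-12), -0.04 ± 0.03 (adjusted p = 0.298) and -0.19 ± 0.03 (adjusted p = 1.92e-05). UTP4 had the same order of differences, with -0.01 ± 0.02 at 48 h and -0.17 ± 0.03 at 72 h.

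TSR1, a GTPase-like factor of late small subunit precursors, was lower by about the same amount at each time. It read 333, 339.5 and 325 CPM in GFP high and 317, 312 and 312 in GFP low libraries at 24 h, 319.8, 326 and 319.5 against 305, 305 and 297 at 48 h, and 299.9, 299.5 and 294 against 282, 284 and 277.5 at 72 h. GFP low libraries lay below at each time, by -0.08 ± 0.02 (adjusted p = 0.00129), -0.09 ± 0.02 (adjusted p = 0.00268) and -0.08 ± 0.02 (adjusted p = 0.00402). The 24 h call was lost with upper quartile factors (-0.02), and the 48 h call without the GFP low library of set 2 (adjusted p = 0.057). Other late factors fell more at 24 h, PNO1 with -0.58 ± 0.04 and BYSL with -0.23 ± 0.05, of which BYSL lost its call with each of the 3 length settings. NOC4L (-0.36 ± 0.06) and the U3 snoRNP protein RRP9 (-0.32 ± 0.06) were lower at 24 h alone, while PNO1 was lower at 72 h too (-0.12 ± 0.04) and UTP20, higher at 24 h, was lower at 72 h (-0.11 ± 0.02). The 24 h call of RRP9 was lost with the exon length trend (-0.07, adjusted p = 0.321) or the transcript length trend (-0.11, 0.0985) removed, and RRP9 was called lower at 72 h with the block (0.0306) and with length and GC trends removed (-0.17, 0.00129). PNO1 lost its 72 h call with length and GC trends removed (-0.08, 0.0648). At 48 h NOP14 (0.0361) and RRP12 (0.0181) were called lower with the block, and with length and GC trends removed NOP14, RRP12 and BYSL were (0.0142, 0.00414 and 0.0382). Leaving out 1 library of its time ended the call of WDR75 at 24 h (GFP low of set 2, adjusted p = 0.0636, or GFP high unnumbered, 0.122), of RRP12 at 24 h (GFP low of set 2, 0.0501) and of PNO1 at 72 h (GFP low of set 1, 0.0793, or GFP high unnumbered, 0.0852).

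Large subunit members had the fewest calls at 24 h by share, 7 lower and 0 higher of 14 (28.5% and 29.3% of all genes, 44.2% and 34.0% of protein-coding genes of at least 10 CPM). PPAN (0.16 ± 0.07, adjusted p = 0.0525) and RRP1B (0.05 ± 0.02, adjusted p = 0.0697) missed the threshold at 24 h and were called higher with the block (0.000493 and 0.000715), with upper quartile factors (0.00449 and 6.74e-05) and with at least 1 CPM in 3 libraries (0.0234 and 0.00741). PPAN was also called higher at 24 h under each of the 3 length settings (0.29, 0.36 and 0.17), and at 72 h with the block (adjusted p = 0.00564). NIP7, which acts in late processing of large subunit rRNA, fell the most. NIP7 (ENSG00000132603.15) lies at chr16:69337996-69343106 on the plus strand of hg38. It read 109, 116 and 114 CPM in GFP high and 69.3, 68.9 and 68.3 in GFP low libraries at 24 h, 104, 102 and 101 against 102, 99.3 and 93.2 at 48 h, and 96.0, 100.3 and 99.4 against 87.9, 88.5 and 87.0 at 72 h. As for IMP3, GFP low values lay below at 24 and 72 h and overlapped at 48 h. This gave -0.72 ± 0.03 (adjusted p = 2.64e-14), -0.06 ± 0.03 (adjusted p = 0.206) and -0.17 ± 0.03 (adjusted p = 0.000419).

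NOP2 alone had no call at 24 h and a lower level at both 48 and 72 h. Its libraries read 7.89, 8.47 and 8.97 CPM in GFP high and 9.32, 8.75 and 9.40 in GFP low cells at 24 h, 9.996, 9.73 and 10.8 against 7.81, 8.13 and 8.73 at 48 h, and 8.22, 7.97 and 8.50 against 6.59, 5.74 and 7.59 at 72 h. The groups overlapped at 24 h and not later. On the log2 scale the differences amounted to 0.11 ± 0.08 (adjusted p = 0.25), -0.31 ± 0.08 (adjusted p = 0.00716) and -0.30 ± 0.09 (adjusted p = 0.0126). Calls were lost without the GFP high library of set 2 at 48 h (0.065) and at 72 h (0.0541), and without the GFP low library of set 1 at 72 h (0.0878). NOP2 has the fewest counts of all members, 154 in its lowest library, and the widest SE.

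RRP1B, a nucleolar protein of large subunit processing, read 352, 343 and 348 CPM in GFP high and 358, 357 and 361 in GFP low libraries at 24 h, 360.3, 353 and 362 against 353, 344 and 351 at 48 h, and 317, 308 and 312 against 329.6, 318 and 334 at 72 h. GFP low libraries lay above at 24 and 72 h and overlapped at 48 h (-0.04 ± 0.02, adjusted p = 0.229, or 0.00899 with the block). The 72 h difference of 0.07 ± 0.02 (adjusted p = 0.0212) was called higher, and lost its call without the GFP low library of set 2 (0.153) or the GFP high library of set 1 (0.0595) or 2 (0.0603). The 72 h call was also lost with no filter (0.109) and with the exon (0.0794) or transcript length trend (0.13) removed. Its 24 h value became -0.06, called lower, with the transcript length trend removed, and it was called higher without any 1 of 8 libraries (adjusted p from 0.0275 to 0.044).

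The PeBoW complex, which is needed for large subunit rRNA processing, consists of PES1, BOP1 and WDR12. PES1 (-0.21 ± 0.03) and WDR12 (-0.16 ± 0.03) were lower at 24 h, and BOP1 had -0.09 ± 0.06 (adjusted p = 0.211, or 0.0028 with the block). With TMM factors and no block none of the 3 was called at 48 or 72 h, and BOP1 was called higher at 72 h with it (0.08, adjusted p = 0.0159). With length and GC trends removed BOP1 was called lower at 24 h (-0.17, 2.67e-05) and PES1 at 72 h (-0.08, 0.0173). EBNA1BP2, a scaffold factor, had -0.58 ± 0.03 at 24 h, -0.09 ± 0.03 at 48 h and -0.12 ± 0.03 at 72 h. NOP16 and WDR74 were lower at 24 h (-0.50 ± 0.04 and -0.32 ± 0.04) and at 48 h (-0.17 ± 0.04 and -0.24 ± 0.04). GNL3, the GTPase nucleostemin, was called lower at 24 h (-0.09 ± 0.03) and at 48 h (-0.08 ± 0.03). The 48 h call was lost without any 1 of 6 libraries (adjusted p from 0.0629 to 0.324). It was also lost with upper quartile factors (0.101), no filter (0.0861) and at least 1 CPM in 3 libraries (0.0599). The 24 h call was lost with upper quartile factors (-0.02) or the exon (0.01) or transcript length trend (0.05) removed. With length and GC trends removed GNL3 was called higher at 24 h (0.08). NOC2L, NOC3L and RRS1 had values between -0.10 and 0.03 at all times. With length and GC trends removed NOC2L was called lower (-0.10) and NOC3L (0.13) and RRS1 (0.13) higher at 24 h, and RRS1 also with either single length trend removed (0.18 and 0.14). With the block RRS1 was called lower at 48 h (0.00766) and NOC3L at 72 h (0.0102).

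Among the multifunctional proteins, NPM1 fell at 24 h and NCL, of similar mean CPM (2428, with 2348 for NPM1), did not. NPM1 (ENSG00000181163.14) lies at chr5:171387116-171411810 on the plus strand of hg38. NPM1 read 2468, 2422 and 2372 CPM in GFP high and 1673, 1671 and 1624 in GFP low libraries at 24 h. The GFP low level was 0.684 times the GFP high level, a log2 fold change of -0.55 ± 0.02 (adjusted p = 1.23e-15), with no overlap. At 48 h NPM1 read 2476, 2461 and 2425 CPM in GFP high and 2527, 2516 and 2404 in GFP low libraries, and at 72 h 2601, 2607 and 2564 against 2526, 2516 and 2420. The groups overlapped at 48 h (0.02 ± 0.02, adjusted p = 0.632), and GFP low lay below at 72 h (-0.06 ± 0.02, adjusted p = 0.0362), a call lost without any 1 of 10 libraries (adjusted p from 0.0501 to 0.164), 5 of the 6 at 72 h among them, with upper quartile factors (0.0736) and with the transcript length trend removed (0.167).

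NCL, which binds rRNA precursors and stimulates their synthesis, read 2614, 2479 and 2476 CPM in GFP high and 2690, 2615 and 2581 in GFP low libraries at 24 h, 2519, 2450 and 2444 against 2334, 2257 and 2195 at 48 h, and 2279, 2206 and 2224 against 2490, 2434 and 2411 at 72 h. Groups overlapped at 24 h, GFP low lay below at 48 h and above at 72 h. Differences on the log2 scale came to 0.06 ± 0.02 (adjusted p = 0.0355), -0.13 ± 0.02 (adjusted p = 0.000331) and 0.13 ± 0.02 (adjusted p = 0.000264). The 24 h value became -0.08 with the exon length trend removed and -0.06 with length and GC trends removed, both called lower. Its call of higher was lost without any 1 of 7 libraries (adjusted p from 0.0861 to 0.186), with DESeq2 (0.124), with RLE factors (0.0633), with no filter (0.0841) and with the transcript length trend removed (0.568).

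DDX21, a helicase of RNA polymerase I and II transcription and rRNA processing, was lower at all 3 times. It read 1148, 1123 and 1115 CPM in GFP high and 1087, 1086 and 1062 in GFP low libraries at 24 h, 1178, 1166 and 1147 against 1069, 1060 and 1041 at 48 h, and 1152, 1155 and 1141 against 1048, 1062 and 1035 at 72 h. No GFP low library reached a GFP high library of its time. Log2 fold changes came to -0.07 ± 0.02 (adjusted p = 0.00247), -0.14 ± 0.02 (adjusted p = 2.47e-06) and -0.13 ± 0.02 (adjusted p = 4.37e-06). At 24 h the value was 0.002 with upper quartile factors and 0.00066 with length and GC trends removed. LYAR (-0.22 ± 0.04) and MYBBP1A (0.12 ± 0.04), a repressor of RNA polymerase I transcription, went opposite ways at 24 h, and with length and GC trends removed reached 0.01 and -0.02. Both 24 h calls were lost with the exon length trend (-0.04 and 0.07) or the transcript length trend (-0.01 and 0.03) removed. With the block MYBBP1A was called lower at 48 h (0.00598) and higher at 72 h (0.0272), and LYAR higher at 72 h (0.0296). The call of MYBBP1A, whose groups overlapped, was lost without any 1 of 5 libraries (GFP high unnumbered and GFP low of set 2 at 24 h, GFP low unnumbered and of set 1 at 48 h, and GFP low of set 2 at 72 h, adjusted p from 0.0538 to 0.138).

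The GFP difference itself changed between times. From 24 to 72 h it rose for 24 members and fell for 10 (22.2% and 19.6% of all genes), and from 24 to 48 h for 20 and 15 (22.1% and 21.4%). Of the 8214 protein-coding genes of at least 10 CPM it rose for 36.5% and fell for 25.6% from 24 to 72 h. From 24 to 48 h it rose for 37.3% of them and fell for 30.6%. From 48 to 72 h it rose for 5 and fell for 2 (5.19% and 3.83%), or for 17 and 8 with the block. The change from 24 to 72 h was 0.80 ± 0.06 for NOP10 (adjusted p = 2.47e-10), 0.78 ± 0.05 for NHP2 and 0.68 ± 0.05 for IMP3, all back towards 0. At the other end stood NOP2 with -0.41 ± 0.12, UTP20 with -0.36 ± 0.03 and POLR1A with -0.31 ± 0.04.

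In GFP high cells, most members were lower at 72 than at 24 h: 31 fell and 2 rose (15.0% and 13.9% of all genes), or 38 and 4 with the block. Of the 8214 protein-coding genes of at least 10 CPM, 24.6% fell and 18.7% rose. Of the 50 values 44 were negative, with a median of -0.13. All 6 RNA polymerase I members fell, with log2 changes from -0.12 to -0.20, with the 72 h libraries below the 24 h libraries in each (as in 20.0% of all genes). This fall was not shared by 9 other RNA polymerase I genes, part of the list of other assembly genes below. Of these 2 fell and 2 rose from 24 to 72 h (median 0.03), and 2 fell and 4 rose from 48 to 72 h (median 0.06). IMP4 (0.16 ± 0.02) and NPM1 (0.10 ± 0.02) were the 2 members that rose from 24 to 72 h. The fall came late: 25 members fell and 3 rose from 48 to 72 h (14.2% and 13.7% of all genes, 19.9% and 21.7% of those protein-coding genes). From 24 to 48 h, 6 fell and 3 rose (9.97% and 10.6%), or 16 and 12 with the block and 5 and 9 with upper quartile factors.

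In GFP low cells the same span went both ways, with 19 members higher and 21 lower at 72 than at 24 h (29.6% and 27.5% of all genes) and a median of 0.00. Of the 8214 protein-coding genes of at least 10 CPM, 42.5% were higher and 35.4% lower. NHP2 rose by 0.86 ± 0.04 (adjusted p = 1.12e-14), NOP10 by 0.65 ± 0.04 and IMP4 by 0.63 ± 0.02. UTP20 fell by 0.50, POLR1A by 0.48 and NOP2 by 0.45 on the log2 scale. From 24 to 48 h 22 rose and 15 fell (25.7% and 25.1%), and from 48 to 72 h 3 rose and 15 fell (13.9% and 12.5%), or 3 and 23 with the block. The comparisons over time and between GFP levels share the 24 h libraries, so they are not independent of each other.

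**Figure D5:**
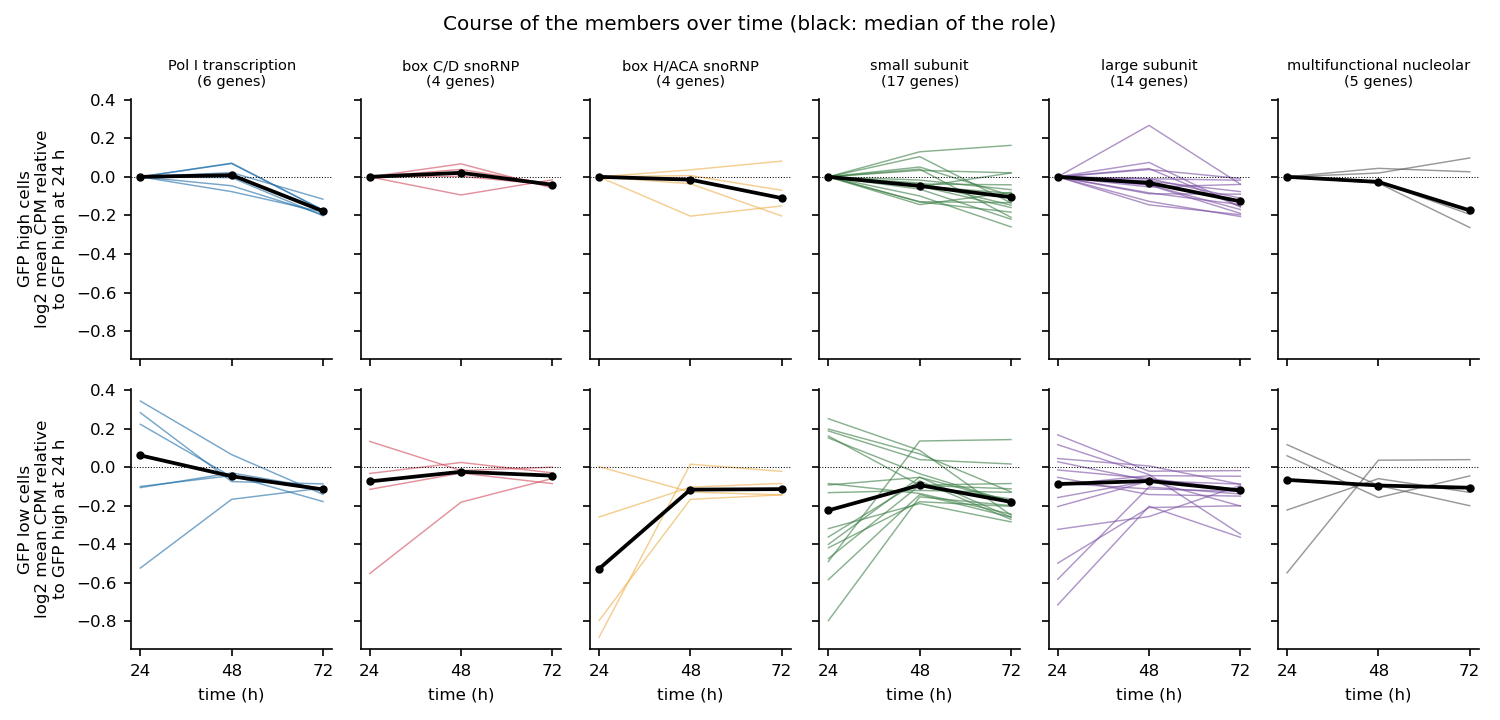
Log2 of the mean CPM of each member (thin lines) relative to its mean in GFP high cells at 24 h, by time in hours, in GFP high (top) and GFP low cells (bottom), 1 column per role, with the median of the role in black. In GFP high cells all 6 RNA polymerase I members are lower at 72 than at 24 h, and in GFP low cells the wide spread at 24 h narrows by 48 h.

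The members' summed share of all counts hardly varied, from 1.32% to 1.42% over the 18 libraries. Without NPM1 and NCL, its 2 most abundant genes, the share at 24 h ran from 0.897% to 0.908% for GFP high and from 0.931% to 0.940% for GFP low libraries, so that these 48 genes together took a larger share of counts in GFP low cells at 24 h before TMM scaling. TMM factors at 24 h lay between 0.963 and 0.971 for GFP high and between 1.05 and 1.07 for GFP low.

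A list of 102 other ribosome assembly genes, all of which passed the filter, is given beside the members. At 24 h 51 were lower and 22 higher in GFP low cells with a median of -0.10 (28.5% and 29.3% of all genes). At 48 h 22 were lower and 6 higher (13.2% and 10.6%), and at 72 h 27 and 8 (13.5% and 12.9%). Of the 8214 protein-coding genes of at least 10 CPM, 44.2% were lower and 34.0% higher at 24 h. At 48 h 21.2% of them were lower, about the share in this list, and 13.1% higher. At 72 h 1728 of the 8214 were lower and 1397 higher. With the block the counts in the list of 102 were 39 and 13 at 48 h, and 15 were higher at 72 h. At 48 h 12 were lower without the GFP low library of set 2 and 14 without the unnumbered GFP high library, and at 72 h 15 were lower without the GFP high library of set 1 or the unnumbered one and 17 without the GFP low library of set 2. The RNA exosome, which trims rRNA precursors, had 10 of 13 genes lower and 1 higher at 24 h, and its subunit EXOSC4 had the lowest value at 24 h (-1.05 ± 0.09) and at 72 h (-0.46 ± 0.09). MDN1, a giant ATPase that remodels large subunit precursors, was the highest at 24 h (0.69 ± 0.02). TAF1A and TAF1C are subunits of SL1, the promoter factor of RNA polymerase I. TAF1A was the lowest at 48 h (-0.43 ± 0.08) and TAF1C the highest at 72 h (0.23 ± 0.06), while WDR18 was the highest at 48 h (0.20 ± 0.06).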

How the data were processed

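RNA was isolated by RNeasy Plus Micro and libraries (18 in all) were built with RiboErase and KAPA HyperPrep chemistry, per the labels. The authors deposited read counts per gene, in whole numbers and not normalized. The submitters' processing notes name STAR, featureCounts (Subread), FastQC, R 4.2.1 and hg38. How counting treated strand and reads shared by genes is not stated there. Column names give each library's group and a library set (unnumbered, 1 or 2), and columns were mapped to groups. A record broken over 3 lines was left out, and 60707 genes were read.

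Counts of the 16474 genes kept by filterByExpr were fitted with 6 group means in edgeR 4.0.16 (R 4.3.3), with TMM factors, glmQLFit and glmQLFTest (12 residual degrees of freedom, common biological coefficient of variation 3.5%). Each SE was taken as the size of the log2 fold change divided by the root of its F statistic. The code was tested on simulated data. Libraries of a group differed by more than sampling noise and all were kept. Depth was 27257876 to 55419458 counts, with at least 154 counts for each member in each library.

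Deviations from the group means of libraries of the same set in other groups correlated at 0.103 to 0.309 (45 pairs, median 0.238). For 90 pairs of other sets the range was -0.248 to 0.031 (median -0.107). Deviations sum to 0 within a group, so the values of other sets are not independent of those of the same set. The set was taken to pair the libraries, which the labels do not state. The fit with the set as a block is given where it changes a member's GFP call or moves a count by over 1.5 times.

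Alternatives were RLE and upper quartile factors, no filter, at least 1 CPM in 3 libraries, the block, a trend on exon length removed, DESeq2 1.42.0 and leaving out each library. Trends on transcript length and on exon length with GC content were added after seeing the data. Named by rule were, in each role, the members with the largest difference at each time, with the largest change of it from 24 to 72 h and with the highest CPM, and of the other assembly genes those with the largest called change at each time. Other members were named after their values were seen. The members, the lists and the tests were chosen with earlier results of these data known. Promoter sequences are those of RefSeq (GRCh38.p14), matched by symbol. Transcript lengths, GC content and gene types are those of GENCODE 29. Exon lengths and shared exon bases come from the lengths and coordinates deposited with the counts. No test was made of motif shares.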

Additional observations from a re-analysis of the deposited data

Results flagged for a closer look

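The GFP difference (GFP low against high, log2) changed between times by the test of the change itself. From 24 to 48 h it rose for 20 members and fell for 15, from 48 to 72 h it rose for 5 and fell for 2, and from 24 to 72 h it rose for 24 and fell for 10. The members with the largest change from 24 to 72 h in each role were POLR1C (0.59), FBL (0.51), NOP10 (0.80), IMP3 (0.68), NIP7 (0.55) and NPM1 (0.49), each of which was lower in GFP low cells at 24 h and nearer to GFP high cells at 72 h. Groups of 3 libraries are too small for a check of single outlying libraries.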

How the results depend on the processing

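With the library set as a replicate block, the count of members lower at 48 h moved from 15 to 25, higher at 72 h from 3 to 8, higher on the mean of the times from 7 to 13, risen and fallen in the change from 48 to 72 h from 5 and 2 to 17 and 8, higher and lower at 48 against 24 h in GFP high cells from 3 and 6 to 12 and 16, higher at 72 against 24 h in GFP high cells from 2 to 4, and lower at 72 against 48 h in GFP low cells from 15 to 23. For the other assembly genes the block moved the counts at 48 h from 6 and 22 to 13 and 39, and those higher at 72 h from 8 to 15. The block took no member's GFP call away.

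Lower at 48 h were 9 with upper quartile factors, 9 with no filter and 23 with length and GC trends removed, which also gave 6 higher at 72 h. Upper quartile factors gave 13 higher on the mean of the times. The change from 48 to 72 h rose for 3 with RLE factors, at least 1 CPM in 3 libraries or either single length trend removed, and for 13 with length and GC trends removed. It fell for 1 with the exon length trend and for 4 with length and GC trends removed. The change from 24 to 72 h fell for 5 with the transcript length trend removed. In GFP high cells, higher at 48 against 24 h were 9 with upper quartile factors, 5 with at least 1 CPM and 7 with length and GC trends removed, and higher at 72 against 48 h were 1 with the exon length trend, 0 with the transcript length trend and 1 with length and GC trends removed. In GFP low cells, 23 were lower at 72 against 48 h with length and GC trends removed. The cause was not tested.

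Leaving out 1 library at a time gave 7 to 16 members lower at 48 h, 8 to 13 lower and 1 to 3 higher at 72 h, 1 to 7 risen and 1 to 5 fallen in the change from 48 to 72 h, 3 to 7 lower at 48 against 24 h and 1 to 3 higher at 72 against 48 h in GFP high cells. Among the other assembly genes it gave 3 to 7 higher and 12 to 25 lower at 48 h (14 without the unnumbered GFP high library) and 15 to 29 lower at 72 h.

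The sign at 24 h turned with length and GC trends removed for RRN3 (0.01), TCOF1 (-0.01), NOP58 (0.13), RRP12 (-0.05), RRS1 (0.13), GNL3 (0.08), NCL (-0.06), DDX21 (0.00066), MYBBP1A (-0.02) and LYAR (0.01). It turned with the transcript length trend removed for NOP58 (0.12), HEATR1 (-0.04), UTP20 (-0.0027), RRS1 (0.14), RRP1B (-0.06) and GNL3 (0.05), with the exon length trend removed for RRS1 (0.18), GNL3 (0.01) and NCL (-0.08), and with upper quartile factors for DDX21 (0.002). No called member's sign turned at 48 or 72 h. NOP2, with the lowest CPM of the members, had the widest SE.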
